A study of Ananas comosus with 9 samples.

Results

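Chitinases and beta-1,3-glucanases of pineapple (Ananas comosus) peel were taken as the genes whose enzyme annotation in the deposited table is exactly EC 3.2.1.14 (chitinase) or EC 3.2.1.39 (glucan endo-1,3-beta-glucosidase). The rule found 74 genes of the 26730 in the table, 21 chitinases and 53 beta-1,3-glucanases, and used no measured value. Peel was sampled at 60, 90 and 120 DAF (days after flowering) with 3 RNA-seq libraries per age, in a series on the loss of anthocyanin colour as the fruit matures. The labels give age as the only difference between the groups and name no cultivar, treatment or pooling. No label ties a library to its own fruit or plant, so each p-value reflects how far these samples vary, and that variation may be technical.

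Chitinases cut chitin, the N-acetylglucosamine polymer of fungal walls and insect cuticle, which plants do not make themselves. Beta-1,3-glucanases cut the beta-1,3-glucans of fungal walls and also callose, the plant's own beta-1,3-glucan at plasmodesmata, sieve plates and wounds. Both families hold pathogenesis-related proteins, induced by infection, wounding and hormones, and members of both also accumulate in some fruits, such as grape, as they ripen. By KEGG ortholog, 12 of the chitinases were K01183 (chitinase) and 9 were K20547 (basic endochitinase B). The glucanases held 34 genes of K19891, 8 of K19892 and 11 of K19893, the KEGG groups that split plant glucan endo-1,3-beta-glucosidases by Arabidopsis family member. A chitinase activity term of the Gene Ontology (GO) was present for 7 of the 21 chitinases, and a glycosyl hydrolase term for 34 of the 53 glucanases.

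Some annotations went against the enzyme class. Aco000012 carried the product name NSL1, an Arabidopsis protein of the membrane attack complex/perforin family whose loss causes spontaneous leaf lesions, beside its chitinase number. The only GO terms of Aco029267 were for protein kinase activity, and its model spanned 180781 bp and overlapped 16 other gene models. Aco020762 had only a peptidyl-prolyl isomerase term. These 3 genes are described by identifier and not as proven chitinases. Of the 74 members 13 overlapped another member and 21 overlapped any other gene model, so their reads may be shared. Neither the strand setting nor the treatment of reads that match several genes is stated in the labels or headers.

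Libraries held 35038248 to 52937826 counts. Levels are given in FPKM (fragments per kilobase, scaled to library depth), with a count of 0 written as 0. A gene was tested if it reached 1 FPKM in at least 3 libraries, and called if edgeR's quasi-likelihood test gave an adjusted p under 0.05 over all 16791 genes tested. Fold changes are on the log2 scale with TMM scaling, which FPKM values lack, so ratios of FPKM values differ from them. Of the 74 members 39 were tested, 12 chitinases and 27 glucanases. Another 16 had 0 counts in all 9 libraries, 7 of them chitinases, and 19 had counts but stayed below the filter, with means of at most 0.759 FPKM. The highest value in a single library among those 19 was 3.70 FPKM, for the chitinase Aco013061 in 90 DAF replicate 3.

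The main change in both families lay between 90 and 120 DAF and went both ways. At 120 DAF 6 of the 39 tested members were higher than at 90 DAF and 10 were lower. That is 41.0% of the tested members, beside 17.4% of all genes tested (8.19% higher and 9.17% lower). The libraries of 120 DAF lay wholly above those of 90 DAF in FPKM for 7 tested members and wholly below for 15, beside 8.73% and 27.3% of all genes. The chitinases gave 3 higher and 2 lower of 12, and the glucanases 3 higher and 8 lower of 27. At 90 DAF 1 of 39 members was lower than at 60 DAF and 0 were higher by edgeR, beside 0.465% and 0.322% of all genes, or 0.786% both ways. Of those higher at 90 DAF, 5 had an unadjusted p under 0.05 and DESeq2 called 3, beside 707 of all genes called higher by DESeq2. Over the whole span 3 of 39 were higher at 120 than at 60 DAF and 8 were lower, beside 4.25% and 5.22% of all genes, or 9.47% both ways. Scaling to total counts gave 1 higher and 9 lower over the whole span, beside 381 and 1506 of all genes. It put the median log2 fold change of all genes at -0.29 there and at -0.32 for 120 against 90 DAF. The comparisons share libraries and are not independent of each other. The median log2 fold change of the tested members was -0.27 for 120 against 90 DAF, beside -0.03 over all genes tested. It was 0.26 for 90 against 60 DAF, beside 0.03, and -0.21 for 120 against 60 DAF, beside -0.01. Without 120 DAF replicate 1 or 3 the count for 120 against 90 DAF was 8 or 9, beside 1094 or 1419 of all genes. For 120 against 60 DAF it was 5, 5 and 4 without 60 DAF replicates 1, 2 and 3, beside 740, 392 and 447. It was 5 or 7 there without 120 DAF replicate 1 or 3, beside 491 or 585 of all genes. The single call for 90 against 60 DAF ended without any library of 60 or 90 DAF or 120 DAF replicate 3, although without 90 DAF replicate 2 another member was called, as higher. Over all genes the fit without 90 DAF replicate 2 called 276 for that comparison, and the others of these fits 0 to 27.

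**Figure D1:**
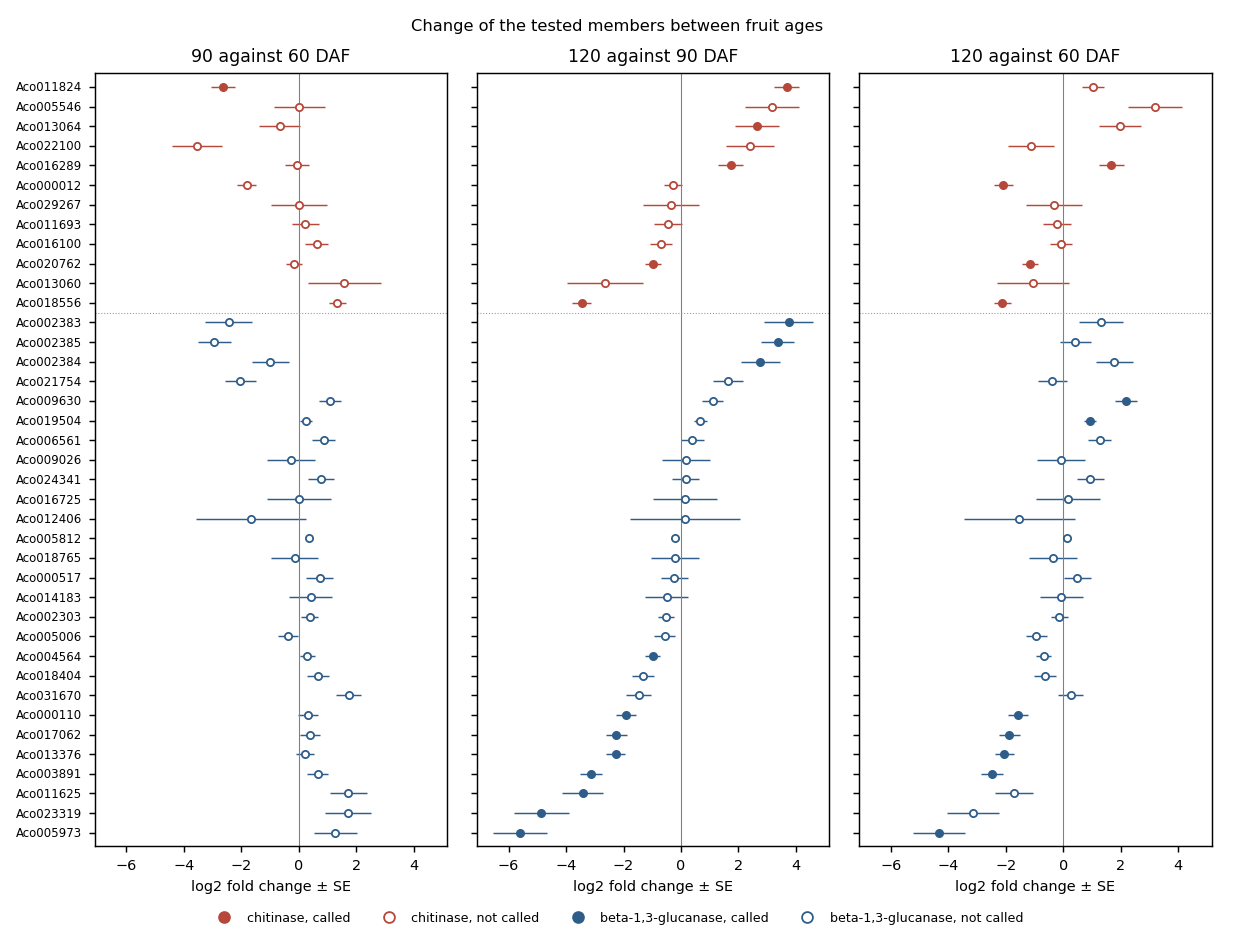
Log2 fold change with its standard error (edgeR) for the 39 tested members, chitinases above the dotted line and beta-1,3-glucanases below it, for 90 against 60, 120 against 90 and 120 against 60 DAF. Filled points passed an adjusted p of 0.05: 1, 16 and 11 members in the 3 comparisons, with changes both ways at 120 DAF against either younger age.

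Summed over its 21 members, the chitinase class was highest at 120 DAF. The sums were 1220, 2848 and 966 FPKM at 60 DAF, 2599, 999 and 2524 FPKM at 90 DAF, and 6680, 8921 and 9110 FPKM at 120 DAF. All 3 libraries of 120 DAF thus stood above the other 6. Chitinases took 0.668, 0.886 and 0.908% of all counts at 120 DAF. A single gene, Aco005546, made up 76.9, 94.7 and 89.7% of the summed FPKM at 120 DAF. Without it the sums were 572, 984 and 565 FPKM at 60 DAF, 946, 893 and 1336 FPKM at 90 DAF, and 1545, 473 and 941 FPKM at 120 DAF, and the ages overlapped. The 53 glucanases summed to 547, 877 and 561 FPKM at 60 DAF, 691, 502 and 679 FPKM at 90 DAF, and 1482, 943 and 1094 FPKM at 120 DAF. These sums too were highest at 120 DAF, where Aco002384 held 55.1, 46.7 and 37.4% of them. It had 441 of the 943 FPKM in 120 DAF replicate 2 and 350 of the 877 FPKM in 60 DAF replicate 2. Without Aco002384 the glucanase sums of the ages thus overlapped as well. In bulk peel, fewer cells of a type and less RNA per cell cannot be told apart.

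**Figure D2:**
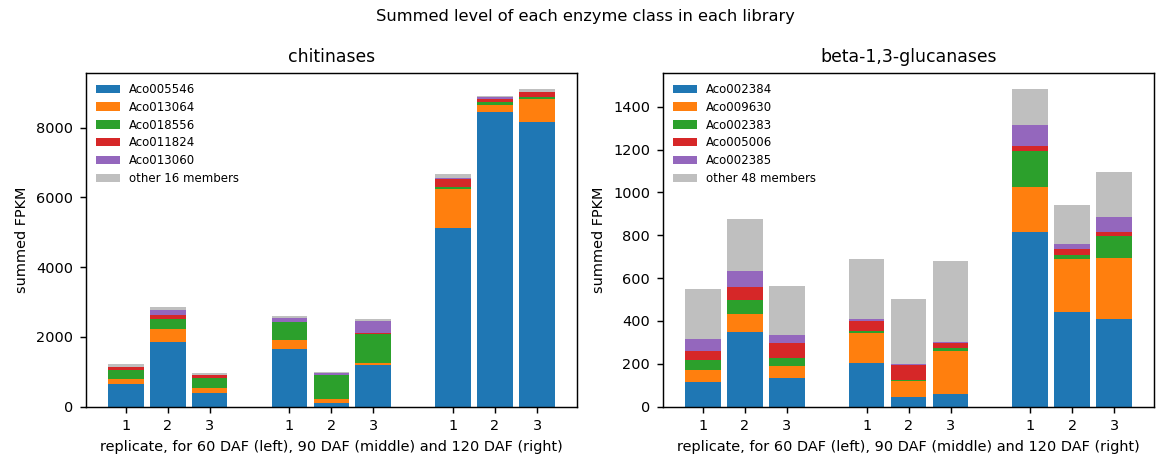
Summed FPKM of the 21 chitinases (left) and the 53 beta-1,3-glucanases (right) in each library, stacked by the 5 members with the highest mean and the remaining members. At 120 DAF Aco005546 fills 76.9 to 94.7% of the chitinase bars, which reach 6680 to 9110 FPKM, and Aco002384 is the largest part of the glucanase bars.

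Aco005546 (K01183; contig 12, 11176497 to 11177458, plus strand) was the most abundant member of either family, with a mean of 3068 FPKM over the 9 libraries. It had 648, 1864 and 401 FPKM at 60 DAF, 1653, 106 and 1187 FPKM at 90 DAF, and 5134, 8448 and 8169 FPKM at 120 DAF. Every library of 120 DAF stood above every library of the younger ages, where values spread widely and 90 DAF replicate 2 was lowest. The log2 fold change was 3.17 ± 0.95 for 120 against 90 DAF (SE, edgeR adjusted p = 0.0538) and 3.19 ± 0.95 for 120 against 60 DAF (adjusted p = 0.0729), so neither passed the test. Against 90 DAF it was called in 4 of 18 alternatives (adjusted p from 0.00120 to 0.123), among them DESeq2 and the fit without 90 DAF replicate 2, where the value was 2.63. Against 60 DAF it was called in 3 (0.00154 to 0.204), and the value was 4.05 without 60 DAF replicate 2. Between 90 and 60 DAF the estimate was 0.02 ± 0.88 (adjusted p = 0.995).

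Aco011824 (K20547; contig 9, 11249770 to 11250911, minus strand), which also carried the GO term for chitinase activity, was the only member called both between 60 and 90 DAF and between 90 and 120 DAF. It had 77.4, 120 and 83.5 FPKM at 60 DAF, 13.5, 15.1 and 16.5 FPKM at 90 DAF, and 249, 82.7 and 139 FPKM at 120 DAF. The 90 DAF libraries lay below all others and close together, while 60 and 120 DAF overlapped. It fell by 2.63 ± 0.41 on the log2 scale at 90 against 60 DAF (edgeR adjusted p = 0.0384). It was 12.7-fold higher at 120 than at 90 DAF (3.67 ± 0.43, adjusted p = 0.00299), a call that held under every alternative. At 120 against 60 DAF it was not called (1.04 ± 0.39, adjusted p = 0.131) but passed without 120 DAF replicate 2 (0.0398 to 0.382 over the alternatives). The call for 90 against 60 DAF ended when any library of 60 or 90 DAF or 120 DAF replicate 3 was left out, with adjusted p from 0.0589 to 0.124.

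Aco018556 (K20547; contig 7, 14687784 to 14690430, plus strand) ran the opposite way. It had 256, 269 and 298 FPKM at 60 DAF, 525, 689 and 846 FPKM at 90 DAF, and 35.9, 71.9 and 48.2 FPKM at 120 DAF, so the 3 ages did not overlap. At 120 DAF it was 11.04-fold lower than at 90 DAF (-3.46 ± 0.32, edgeR adjusted p = 0.00178) and 4.37-fold lower than at 60 DAF (-2.13 ± 0.30, adjusted p = 0.00848). Both calls held under every alternative. At 90 DAF it was 2.53-fold above 60 DAF, which missed the threshold (adjusted p = 0.0862). In 90 DAF replicate 2 this gene replaced Aco005546 as the most abundant chitinase, with 68.9% of the class's summed FPKM.

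Further genes of the basic endochitinase group K20547 were called higher at 120 DAF. Aco013064 (contig 25, 8690654 to 8691851, plus strand) had 144, 372 and 118 FPKM at 60 DAF, 249, 105 and 59.0 FPKM at 90 DAF, and 1122, 211 and 671 FPKM at 120 DAF. It was 6.22-fold higher at 120 than at 90 DAF (2.64 ± 0.76, edgeR adjusted p = 0.0472), although the libraries of these ages overlapped. Leaving out any library of 60 DAF, 90 DAF replicate 2 or 3, or 120 DAF replicate 1 or 3 ended that call (adjusted p from 0.0511 to 0.141), and it held in only 4 of 18 alternatives. Leaving out 90 DAF replicate 1 gave a log2 fold change of 3.31, and leaving out 120 DAF replicate 1 gave 2.04. Aco016289 (contig 4, 11091514 to 11095766, minus strand) carried GO terms for membranes only, that of the endoplasmic reticulum among them, and none for chitinase activity. It had 22.2, 33.8 and 26.8 FPKM at 60 DAF, 29.1, 19.3 and 31.0 FPKM at 90 DAF, and 120, 38.6 and 56.2 FPKM at 120 DAF. All libraries of 120 DAF were above the others, 3.30-fold above 90 DAF (1.72 ± 0.43, adjusted p = 0.0310) and 3.19-fold above 60 DAF (1.67 ± 0.43, adjusted p = 0.0486). Without 120 DAF replicate 1 these were 1.12 and 1.07 and neither was called. Adjusted p for the call against 90 DAF was 0.0523 to 0.0865 where 60 DAF replicate 3, 90 DAF replicate 1 or 2, or either of 120 DAF replicates 1 and 3 was left out, and it ended with limma too (0.0508 and 0.0511). For the call against 60 DAF it was 0.0746 to 0.148 where any library of 60 DAF, 90 DAF replicate 1, or 120 DAF replicate 1 or 3 was left out, and that call ended under 7 of the other 9 alternatives too.

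Aco013060 and Aco013064 belong to a run of 4 basic endochitinase models on contig 25 (8690654 to 8746577), of which 2 were tested. Aco013060 overlaps a model on the other strand. It had 21.0, 154 and 8.08 FPKM at 60 DAF, 110, 45.4 and 360 FPKM at 90 DAF, and 5.94, 55.7 and 11.7 FPKM at 120 DAF. The ages overlapped and no comparison was called (-2.64 ± 1.32 for 120 against 90 DAF, edgeR adjusted p = 0.202). Leaving out 90 DAF replicate 3 gave -1.36, and leaving out 120 DAF replicate 2 gave -4.03. At 120 DAF these neighbours differed in their order of libraries: Aco013064 was highest in replicate 1 and lowest in replicate 2, while Aco013060 was lowest in replicate 1 and highest in replicate 2. The remaining models of the run, Aco013061 and Aco013063, had means of at most 0.618 FPKM.

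Aco000012 (contig 17, 6625259 to 6631763, minus strand), the gene named NSL1, was highest at 60 DAF. It had 31.6, 17.4 and 16.4 FPKM at 60 DAF, 6.04, 5.52 and 7.15 FPKM at 90 DAF, and 3.42, 4.58 and 4.78 FPKM at 120 DAF. The 3 ages did not overlap in FPKM, but with TMM scaling 90 and 120 DAF did. For 120 against 90 DAF the log2 fold change was -0.27 ± 0.31 (edgeR adjusted p = 0.594), called in 0 of 18 alternatives. Aco000012 was 4.25-fold lower at 120 than at 60 DAF (-2.09 ± 0.33, edgeR adjusted p = 0.0107), under every alternative as well. The estimate for 90 against 60 DAF, -1.81 ± 0.32, narrowly missed the threshold (adjusted p = 0.0529). It was called there by DESeq2, by limma with either pseudocount and under total count scaling. Aco020762 (contig 23, 4985040 to 4994441, minus strand), which overlaps the silent member Aco028682, had 3.35, 3.49 and 3.98 FPKM at 60 DAF, 3.45, 4.33 and 2.002 FPKM at 90 DAF, and 1.13, 1.599 and 1.23 FPKM at 120 DAF. It was 1.99-fold lower at 120 than at 90 DAF (adjusted p = 0.0439) and 2.25-fold lower than at 60 DAF (adjusted p = 0.0395). The first call ended without any library other than 90 DAF replicate 3 (adjusted p from 0.0624 to 0.136). The second ended without any library of 60 or 120 DAF or 90 DAF replicate 1 (adjusted p from 0.0580 to 0.130).

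**Figure D3:**
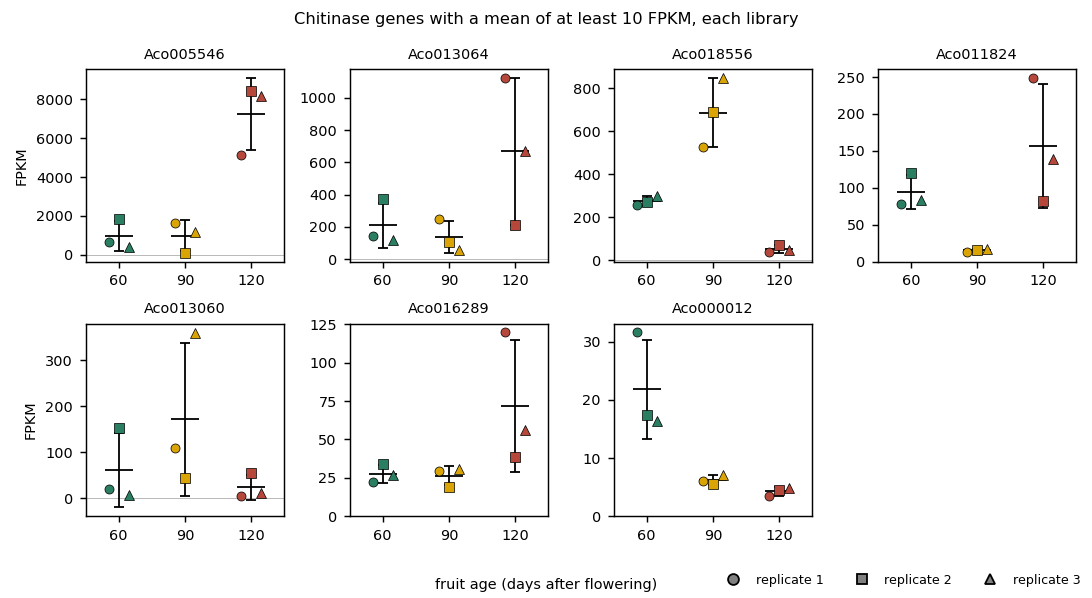
FPKM of the 7 chitinase genes with a mean of at least 10 FPKM in each library at 60, 90 and 120 DAF; symbols mark the replicate number, and bars the mean and SD of 3 libraries. Aco005546 reaches 5134 to 8448 FPKM at 120 DAF, Aco011824 dips to 13.5 to 16.5 FPKM at 90 DAF, and Aco018556 peaks there at 525 to 846 FPKM.

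The beta-1,3-glucanases called higher by edgeR at 120 than at 90 DAF were 3 neighbouring K19891 genes on the plus strand of contig 5 (1950205 to 1961035). Aco002384, the most abundant glucanase, had 115, 350 and 133 FPKM at 60 DAF, 206, 44.0 and 59.6 FPKM at 90 DAF, and 816, 441 and 409 FPKM at 120 DAF. Aco002383 had 45.4, 64.4 and 34.0 FPKM at 60 DAF, 12.1, 3.08 and 11.2 FPKM at 90 DAF, and 166, 17.6 and 105 FPKM at 120 DAF. Aco002385 had 57.2, 78.5 and 35.6 FPKM at 60 DAF, 9.76, 6.79 and 6.07 FPKM at 90 DAF, and 95.7, 20.4 and 70.4 FPKM at 120 DAF. For all 3 genes every library of 120 DAF was above every library of 90 DAF, and for Aco002383 and Aco002385 every library of 90 DAF was below every library of 60 DAF.

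At 120 against 90 DAF these genes were 6.80-fold (Aco002384, 2.77 ± 0.67, edgeR adjusted p = 0.0276), 13.4-fold (Aco002383, 3.75 ± 0.86, adjusted p = 0.0223) and 10.3-fold higher (Aco002385, 3.36 ± 0.58, adjusted p = 0.00921). The Aco002385 call held under every alternative. For Aco002384, leaving out 90 DAF replicate 2 or 3 or 120 DAF replicate 1 or 3 ended the call (adjusted p from 0.0543 to 0.0855), and its log2 fold change was 3.65 without 90 DAF replicate 1. For Aco002383 it ended on leaving out 90 DAF replicate 1 or 2 or 120 DAF replicate 1 or 3 (adjusted p from 0.0527 to 0.0684), and the value was 3.11 without 120 DAF replicate 1. With only 90 and 120 DAF in the fit both calls also ended (adjusted p of 0.0549 for Aco002384 and 0.0659 for Aco002383). None of the 3 was called by edgeR at 90 against 60 DAF (Aco002385, -2.94 ± 0.57, adjusted p = 0.0605; Aco002383, -2.44 ± 0.81, adjusted p = 0.187; Aco002384, -0.99 ± 0.64, adjusted p = 0.479) or at 120 against 60 DAF. At an unadjusted p under 0.05 Aco002383 and Aco002385 passed at 90 against 60 DAF and Aco002384 at 120 against 60 DAF, and DESeq2 called the same 3. Aco002385 was called at 90 against 60 DAF in 5 of 18 alternatives (adjusted p from 1.06e-05 to 0.170), which were DESeq2, both limma fits, the fit of only those ages and the fit without 120 DAF replicate 2. For Aco002384 at 90 against 60 DAF leaving out 90 DAF replicate 1 gave -1.87 and leaving out 60 DAF replicate 2 gave -0.33. Neighbouring copies may share reads, so how the counts divide among the 3 genes is uncertain.

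The K19892 genes Aco009630 and Aco019504 were higher at 120 than at 60 DAF. Aco009630 (contig 1, 815920 to 818207, plus strand), whose GO terms place it in a membrane, had 56.3, 83.7 and 58.3 FPKM at 60 DAF, 137, 75.5 and 201 FPKM at 90 DAF, and 210, 250 and 283 FPKM at 120 DAF. The libraries of 120 DAF lay above all others, while 60 and 90 DAF overlapped. At 120 DAF it was 4.56-fold higher than at 60 DAF (2.19 ± 0.39, edgeR adjusted p = 0.0155). The call ended without 60 DAF replicate 1 or 3 (adjusted p from 0.0543 to 0.0650). The steps in between were 1.09 ± 0.37 for 90 against 60 DAF (adjusted p = 0.198) and 1.10 ± 0.37 for 120 against 90 DAF (adjusted p = 0.0771). Aco019504 (contig 8, 4984212 to 4988879, minus strand) had 11.1, 10.8 and 11.4 FPKM at 60 DAF, 17.3, 13.5 and 9.71 FPKM at 90 DAF, and 14.0, 23.1 and 15.4 FPKM at 120 DAF. It was 1.91-fold higher at 120 than at 60 DAF (0.93 ± 0.22, adjusted p = 0.0395), a call that ended without any library of either age (0.0642 to 0.134), under total count scaling (0.144) and with limma (0.160 and 0.167).

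More glucanases fell than rose at 120 against 90 DAF. Aco005973 (K19891; contig 17, 10014551 to 10016813, minus strand) had 2.82, 2.24 and 3.25 FPKM at 60 DAF, 5.65, 11.2 and 3.82 FPKM at 90 DAF, and 0.172, 0.160 and 0 FPKM at 120 DAF. That is 24 counts at 120 DAF over 3 libraries, against 1566 at 90 DAF. It was 48.7-fold lower at 120 than at 90 DAF (-5.60 ± 0.95, edgeR adjusted p = 0.00885) and 20.1-fold lower than at 60 DAF (-4.33 ± 0.90, adjusted p = 0.0263). The first call held under every alternative in which it was tested. The second ended without any library of 60 DAF, or 120 DAF replicate 1 or 2 (adjusted p from 0.0521 to 0.0769).

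Aco023319 (K19891; contig 9, 7564506 to 7566717, plus strand), which overlaps 3 other models, showed the same order of ages, with 1.07, 1.48 and 1.56 FPKM at 60 DAF, 3.09, 5.81 and 4.57 FPKM at 90 DAF, and 0, 0.278 and 0.0885 FPKM at 120 DAF. At 120 DAF it was 29.0-fold lower than at 90 DAF (-4.86 ± 0.94, edgeR adjusted p = 0.0133). Its adjusted p was 0.0507 without 120 DAF replicate 3 and 0.0501 with only 90 and 120 DAF in the fit, and its log2 fold change was -6.15 without 120 DAF replicate 2. Aco011625 (K19893; contig 7, 46574 to 49607, minus strand) had 1.76, 3.37 and 5.11 FPKM at 60 DAF, 9.02, 20.6 and 4.998 FPKM at 90 DAF, and 1.07, 0.318 and 1.13 FPKM at 120 DAF. It was 10.8-fold lower at 120 than at 90 DAF (-3.43 ± 0.70, adjusted p = 0.0159), with an adjusted p of 0.0528 without 120 DAF replicate 1. All libraries of 120 DAF were below all others for both genes.

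A group of moderately expressed glucanases was lower at 120 DAF than at either younger age. Aco003891 (K19891; contig 16, 3031291 to 3033612, minus strand) had 9.06, 17.6 and 23.9 FPKM at 60 DAF, 27.3, 28.2 and 24.2 FPKM at 90 DAF, and 1.54, 2.78 and 3.02 FPKM at 120 DAF. It was 8.78-fold lower at 120 than at 90 DAF (edgeR adjusted p = 0.00358) and 5.58-fold lower than at 60 DAF (adjusted p = 0.0106). Aco013376 (K19891; contig 16, 10761240 to 10764717, minus strand) had 22.3, 23.7 and 13.4 FPKM at 60 DAF, 16.7, 24.8 and 27.1 FPKM at 90 DAF, and 3.97, 4.78 and 3.06 FPKM at 120 DAF. It was 4.83-fold and 4.16-fold lower at 120 DAF than at 90 and 60 DAF (adjusted p = 0.00550 and 0.0111). The calls of Aco003891 and Aco013376 held under every alternative.

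Aco017062 (K19893; contig 15, 11014471 to 11016962, plus strand) had 15.1, 18.1 and 20.9 FPKM at 60 DAF, 23.0, 26.7 and 21.2 FPKM at 90 DAF, and 3.67, 6.56 and 2.04 FPKM at 120 DAF. It was 4.77-fold lower at 120 than at 90 DAF (edgeR adjusted p = 0.00756, called under every alternative) and 3.66-fold lower than at 60 DAF (adjusted p = 0.0204). Against 60 DAF the adjusted p was 0.0676 to 0.0792 where 60 DAF replicate 2 or 3 or 120 DAF replicate 1 was left out. Aco000110 (K19891; contig 13, 4608384 to 4611915, minus strand) had 23.0, 29.2 and 27.6 FPKM at 60 DAF, 30.9, 31.6 and 37.9 FPKM at 90 DAF, and 5.73, 12.2 and 4.36 FPKM at 120 DAF. It was 3.76-fold lower at 120 than at 90 DAF (adjusted p = 0.0123, and 0.0525 without 120 DAF replicate 1) and 2.98-fold lower than at 60 DAF (adjusted p = 0.0341). Its call against 60 DAF was lost on leaving out any library of 60 DAF or 120 DAF replicate 1 or 3 (0.0666 to 0.117). Aco004564, outside the rule for named genes and chosen after its values were seen, completed the 16 calls. It averaged 2.19 ± 0.40 FPKM at 120 DAF and 5.36 ± 1.70 FPKM at 90 DAF (SD, n = 3 each; edgeR adjusted p = 0.0382). Its call ended without any library other than 90 DAF replicate 3 (0.0556 to 0.114).

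Aco005006 (K19891; contig 8, 1359741 to 1361914, plus strand), among the 5 most abundant glucanases, was not called. It had 41.0, 57.9 and 73.2 FPKM at 60 DAF, 42.9, 70.3 and 23.1 FPKM at 90 DAF, and 26.3, 29.0 and 18.8 FPKM at 120 DAF. The libraries of 120 DAF were below those of 60 DAF and overlapped those of 90 DAF (-0.93 ± 0.36 against 60 DAF, edgeR adjusted p = 0.139).

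**Figure D4:**
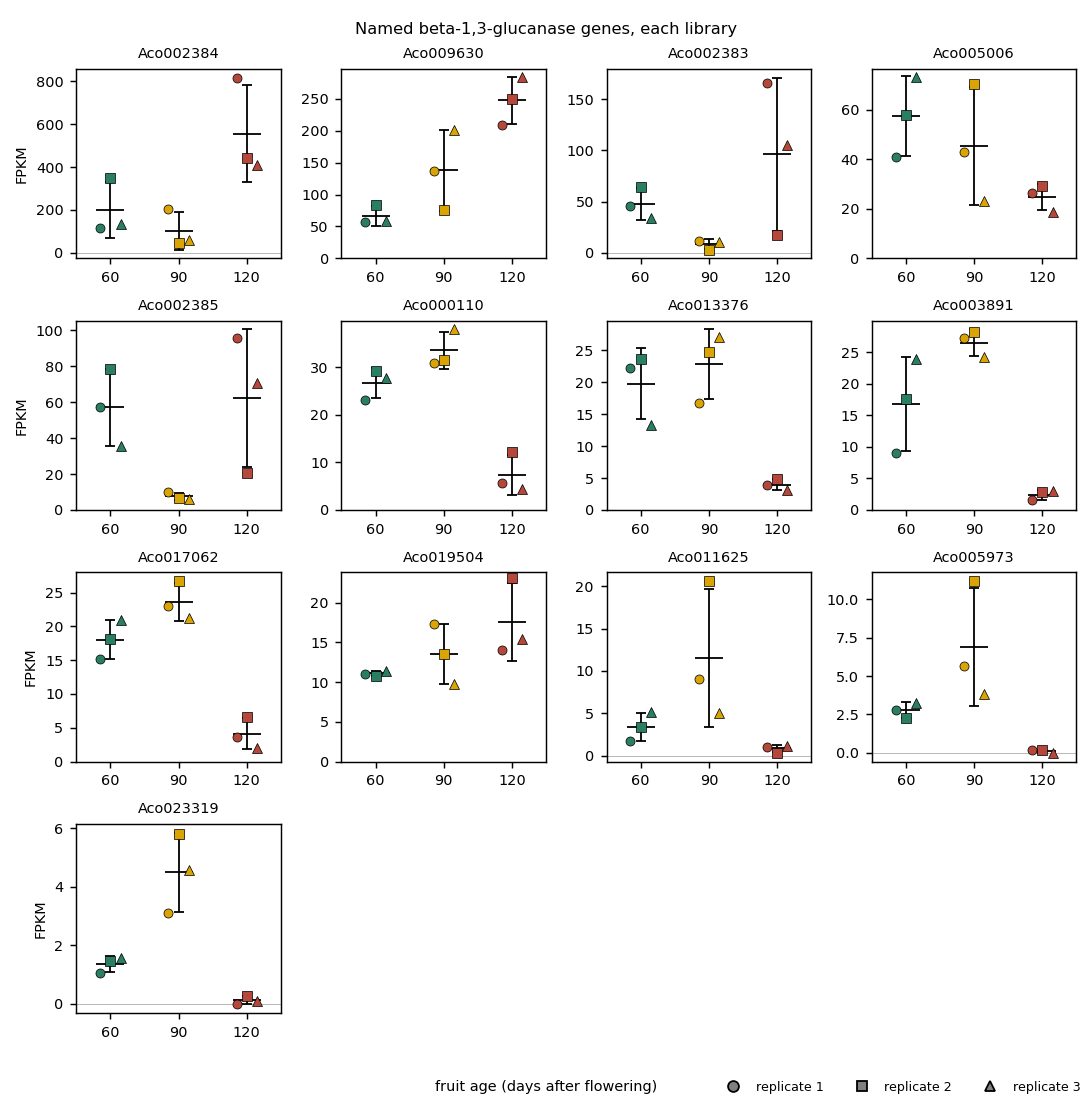
FPKM of the 13 named beta-1,3-glucanase genes in each library at 60, 90 and 120 DAF; symbols mark the replicate number, and bars the mean and SD of 3 libraries. Aco002384, Aco002383 and Aco002385 have their lowest library at 90 DAF, with Aco002385 at 6.07 to 9.76 FPKM, while Aco005973, Aco023319 and Aco011625 have their highest library there and are at 1.13 FPKM or less at 120 DAF.

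Summed transcripts of the green tissue of the peel were also lowest at 120 DAF. The 23 genes of light-harvesting proteins, markers of chlorophyll-bearing cells, summed to 114 to 239 FPKM at 60 DAF, 575, 2744 and 336 FPKM at 90 DAF, and 27.7 to 49.5 FPKM at 120 DAF. Between 5 and 9 of the 23 were at 0 counts in a library of 120 DAF, and 2 to 5 in a library of 60 or 90 DAF. Of 17 tested, edgeR called 12 lower at 120 than at 90 DAF and 5 lower than at 60 DAF. The shares of all genes were 9.17% and 5.22%, and 0 of the 17 were called higher. Not all fell, as the 4 tested genes of K08912 had median log2 fold changes of -0.04 and 0.73. The light-harvesting sum was highest in 90 DAF replicate 2, and so were 6 of the 10 members called lower at 120 than at 90 DAF. In that library and their next highest, Aco003891 had 28.2 and 27.3 FPKM and Aco017062 26.7 and 23.0 FPKM. Likewise Aco020762 had 4.33 and 3.98 FPKM, and Aco023319 5.81 and 4.57 FPKM. Larger gaps were those of Aco005973, 11.2 and 5.65 FPKM, and Aco011625, 20.6 and 9.02 FPKM. How many of all genes were highest in that library was not counted. Aco000110, Aco013376 and Aco018556 were highest in 90 DAF replicate 3 and Aco004564 in replicate 1. Without 90 DAF replicate 2 edgeR called 8 of the 10. Over all genes it called 1113 lower in that fit and 1540 with all libraries. Log2 fold changes there were -5.09 for Aco005973, -2.73 for Aco011625, -4.67 for Aco023319, -3.50 for Aco018556 and -3.11 for Aco003891. The lower calls lost were Aco020762 (-0.75, edgeR adjusted p = 0.102) and Aco004564 (-0.89, adjusted p = 0.0855). Of the members called higher, that fit lost Aco002383, Aco002384, Aco013064 and Aco016289 and kept Aco002385 and Aco011824. The 30 wax synthesis genes, markers of the epidermis, summed to 183 to 210 FPKM at 60 DAF, 200, 216 and 414 FPKM at 90 DAF, and 80.0, 138 and 218 FPKM at 120 DAF. In the other 2 libraries of 90 DAF too the light-harvesting sum was above every library of 120 DAF, and the part of either tissue in these changes was not tested.

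Between 60 and 90 DAF several members differed at an unadjusted p alone. Of the 39 tested, 11 had an unadjusted p under 0.05 by edgeR, 5 higher and 6 lower at 90 DAF, beside 16.9% of all genes. DESeq2 called 3 higher and 6 lower, beside 707 and 730 of all 16791 genes. The lower ones by DESeq2 were Aco011824, Aco000012, Aco002383, Aco002385 and, chosen after their values were seen, Aco021754 and Aco022100. The basic endochitinase Aco022100 had 6.56, 7.01 and 4.51 FPKM at 60 DAF, 0.694, 0.486 and 0.356 FPKM at 90 DAF, and 5.25, 0.379 and 1.08 FPKM at 120 DAF. The glucanase Aco021754 had 9.77, 17.9 and 10.4 FPKM at 60 DAF, 2.16, 2.15 and 4.72 FPKM at 90 DAF, and 9.38, 3.84 and 10.3 FPKM at 120 DAF. Neither passed edgeR in any comparison with all libraries, and both were lower in every library of 90 than of 60 DAF. The libraries of 90 DAF lay wholly above those of 60 DAF for 9 members and wholly below for 6, beside 10.4% and 10.2% of all genes.

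The libraries of an age differed widely from each other for some abundant members. Among genes with a mean of at least 10 FPKM, the highest library exceeded the lowest by a median of 2.001-fold at 120 DAF for the 21 members and 1.36-fold for all 10520 genes with counts in each of those libraries. At 60 DAF the medians were 1.78-fold for members and 1.31-fold for all genes, and at 90 DAF 1.78-fold and 1.68-fold. Spread over 4-fold was seen for 2 of 21 members at 60 DAF (9.52%), 5 at 90 DAF (23.8%) and 4 at 120 DAF (19.0%), beside 2.82, 10.1 and 5.51% of all such genes. At 120 DAF they were Aco002383, Aco002385 and Aco013064, high in replicate 1 and low in replicate 2, and Aco013060, the reverse. At 60 DAF Aco005546 and Aco013060 spread over 4-fold, both highest in replicate 2 and lowest in replicate 3. At 90 DAF it was Aco002384 and Aco005546 (highest in replicate 1, lowest in replicate 2), Aco013064 (highest in replicate 1, lowest in replicate 3), and Aco013060 with the glucanase Aco014183, chosen after its values were seen (highest in replicate 3, lowest in replicate 2). These are descriptions of 3 libraries per age and were not tested.

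Other genes that act around these enzymes were also called. Hexosaminidases (EC 3.2.1.52), which release N-acetylglucosamine from chitin fragments and glycoproteins, had 1 of 3 tested genes higher at 120 than at 90 DAF and 2 of 3 higher than at 60 DAF. Aco010981 had 106 ± 7.58 FPKM at 120 DAF and 61.7 ± 10.6 FPKM at 90 DAF (SD, n = 3 each; 2.08-fold, edgeR adjusted p = 0.0120). Of 33 tested beta-glucosidases and exo-beta-1,3-glucosidases (EC 3.2.1.21 and EC 3.2.1.58) 3 were higher and 9 lower at 120 than at 90 DAF. The largest rise among them was Aco021020, with 376 ± 297 FPKM at 120 DAF and 20.5 ± 19.7 FPKM at 90 DAF (21.5-fold, adjusted p = 0.0217). The largest fall was Aco022843, with 2.19 ± 1.47 FPKM at 120 DAF and 41.2 ± 8.39 FPKM at 90 DAF (15.5-fold, adjusted p = 0.00736). None of the 6 tested genes of the chitin receptor CERK1 group (K13429) and the group of BAK1 (K13416), a co-receptor of leucine-rich repeat receptor kinases, was called by edgeR in any comparison. At an unadjusted p under 0.05, 1 was lower at 90 than at 60 DAF and 1 higher at 120 than at 60 DAF, and DESeq2 called 1, at 120 against 60 DAF. No gene carried the codes searched for callose synthesis.

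Among genes of salicylic acid response, 4 of 19 tested members of the NPR1 (K14508), TGA (K14431) and PR-1 (K13449) groups were higher and 2 lower at 120 than at 90 DAF. The pathogenesis-related gene Aco004980 (K13449) had 0 counts at 60 DAF, 11 at 90 DAF and 545 at 120 DAF. It was at least 154-fold higher at 120 than at 60 DAF, taking 3 counts over the age as the floor (edgeR adjusted p = 0.0247), and it was also called against 90 DAF (adjusted p = 0.0260). Its level at 120 DAF was 2.05 to 4.49 FPKM. The other tested gene of K13449, Aco028880, was not called by edgeR in any comparison. The TGA factor gene Aco001167 had 56.2, 53.3 and 48.9 FPKM at 60 DAF, 25.3, 22.8 and 25.9 FPKM at 90 DAF, and 106, 76.8 and 83.2 FPKM at 120 DAF. It was called in all 3 comparisons, lower at 90 than at 60 DAF (-1.10 ± 0.18, adjusted p = 0.0429) and higher at 120 DAF than at either age. Of 25 tested WRKY genes of the defence groups K13424 and K13425, 2 were higher and 1 lower at 120 than at 90 DAF. The background shares for this comparison are those given above, 8.19% higher and 9.17% lower, and the WRKY counts did not exceed them. For 120 against 60 DAF, used for the hexosaminidases, the shares were 4.25% higher and 5.22% lower.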

How the data were processed

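Paired-end poly(A) RNA-seq of 9 peel libraries was sequenced on an Illumina NovaSeq instrument, per the labels' protocols. For 26730 gene models, the deposited table gives read counts (whole numbers) and the authors' FPKM values, per the file headers. All 65846 values at count 0 have an FPKM of 0.0001, treated here as 0 in levels and as deposited in limma fits. Bowtie 0.12.2, HISAT2 2.0 and StringTie 1.3.0 are named in the submitters' processing notes; no source used here gives their roles or the genome build. Contigs and positions are those of the deposited table, and 0 identifiers matched the RefSeq table at hand.

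Counts were tested as deposited with edgeR's quasi-likelihood test (TMM scaling, 1 fit over 9 libraries, 6 residual degrees of freedom), with Benjamini-Hochberg adjustment over the 16791 genes that reached 1 FPKM in 3 or more libraries. The standard error is the log2 fold change divided by the square root of F. Members and lists were chosen with earlier results of these data known. Named genes are the members cited in the rule, and in each class the 5 most abundant and up to 6 called members each way per comparison with a mean of at least 1 FPKM. Alternatives were median-ratio or total count scaling, no filter or a minimum of 5 FPKM, DESeq2, limma on log2(FPKM + 1) and log2(FPKM + 0.1), the replicate number as a block, only the 2 ages compared, and 9 fits that each lacked 1 library. The test was tried on simulated data. Replicates with the same number did not deviate together in every pair. No 2 libraries of an age agreed within sampling noise. The floor of 3 counts covers counting error only, while each standard error also carries the spread between libraries. Software was Python 3.11.15, DESeq2 1.42.0, limma 3.58.1 and edgeR 4.0.16 in R 4.3.3.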

Additional observations from a re-analysis of the deposited data

How the results depend on the processing

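Directions of the called changes of the named genes held under all 18 alternatives, except that Aco005973, Aco020762 and Aco023319 were not tested at a minimum of 5 FPKM. Their side of the threshold held under every alternative that tested them for 0 of 1 call at 90 against 60 DAF, 7 of 15 at 120 against 90 DAF and 4 of 11 at 120 against 60 DAF. For 90 against 60 DAF the test called 1 member, total count scaling 2 and DESeq2 9. Both limma fits called 3 there, and so did the fit of only those 2 ages. Over all genes the test called 132, total count scaling 85 and DESeq2 1437. The limma fits called 293 (pseudocount 1) and 209 (0.1), and the fit of only those 2 ages 54. For 120 against 90 DAF the test called 16 members and the fit of only those 2 ages 9, beside 2915 and 1215 of all genes. For 120 against 60 DAF the test called 11 and DESeq2 17, beside 1590 and 3393 of all genes. Leaving out 1 library gave 0 to 2, 8 to 18 and 4 to 13 members for 90 against 60, 120 against 90 and 120 against 60 DAF. Over all genes tested these fits called 0 to 276, 1094 to 3164 and 392 to 2452. The cause was not tested.

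Same-numbered libraries correlated at -0.339 to 0.390 in their deviations from the age means, and differently numbered ones at -0.361 to 0.313. Deviations of 3 libraries from their own mean are tied to each other, so this check cannot tell whether the numbers pair libraries. The labels do not say either. With the replicate block, which leaves fewer residual degrees of freedom, 0, 12 and 7 members were called, and 10, 1970 and 995 of all genes, against 132, 2915 and 1590 without it. It ended the calls of Aco011824 at 90 against 60 DAF, Aco004564 and Aco013064 at 120 against 90 DAF, Aco016289 and Aco020762 at 120 DAF against both ages, and Aco000110 and Aco019504 at 120 against 60 DAF.

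Some uncalled log2 fold changes turned sign, and the cause was not tested. Aco005546 at 90 against 60 DAF was -0.40 and -0.41 in limma with pseudocounts of 1 and 0.1, and -0.46 to 0.88 with 1 library left out. Aco002385 at 120 against 60 DAF was -0.066 and -0.073 in limma and -0.028 to 0.85 with 1 library left out. Aco013060 at 120 against 60 DAF ran from -2.45 to 0.96 with 1 library left out. At 90 against 60 DAF these ranges were -1.33 to 0.0022 for Aco013064, -0.0075 to 0.44 for Aco013376, -0.26 to 0.15 for Aco016289 and -0.42 to 0.037 for Aco020762. With no filter, the glucanase Aco002643, at 0 counts in all libraries of 120 DAF, was also called. With the filter, 19 members with counts were not tested.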
